A study of Mus musculus with 12 samples.

Results

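The subunits of oxidative phosphorylation, encoded in the nucleus and in the mitochondrial genome, were followed in cultured adventitial fibroblasts of the mouse aorta. Members were every row of the count table whose symbol follows the naming pattern of these subunits, namely Nduf with a, b, s, v or c and a number, Sdha to Sdhd, Uqcr, Cox4 to Cox8 with a letter a to c, Atp5, and the mitochondrial Nd, Co, Cytb and Atp genes, without symbols that carry "-ps". This gave 95 of 54352 gene symbols, with 7 "-ps" symbols left out. Of these, 82 lie in the nuclear genome, 35 of complex I, 4 of complex II, 8 of complex III, 18 of complex IV and 17 of complex V. The other 13 are the protein-coding genes of mitochondrial DNA, 7 of complex I, 1 of complex III, 3 of complex IV and 2 of complex V. The pattern also takes in a processed pseudogene, Cox6c2, and it leaves out the complex IV subunit Cox4i1 and the complex III subunit Cyc1, which are described apart with other companion genes.

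Oxidative phosphorylation takes place in the inner mitochondrial membrane. Complexes I and II pass electrons from NADH and succinate to ubiquinone, complex III passes them on to cytochrome c and complex IV to oxygen, while complexes I, III and IV pump protons whose return through complex V, the ATP synthase, drives the formation of ATP. Complex II is encoded wholly in the nucleus, and the other complexes combine nuclear subunits with core subunits that mitochondria transcribe from their own DNA as long polycistronic RNAs. Several nuclear subunits of complex IV come in a ubiquitous form and in forms restricted to heart, skeletal muscle, brown fat or testis. In fibroblasts, TGFβ is known above all for inducing matrix and contractile genes.

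The study asked whether fibroblasts of the adventitia, which is the outer layer of the vessel, answer TGFβ differently according to the vascular site they come from. Wild-type C57Bl/6 mice were the source of explant cultures from the ascending and from the descending aorta, passaged and grown in DMEM with 5% FBS. The sample labels give an age of 14 weeks, which is not the age in the study's methods. The 4 groups, each of 3 libraries, were control and TGFβ cultures of descending and of ascending fibroblasts. TGFβ was given at 10 ng/mL for 48 h, the controls received its solute, no group carries a genetic alteration, and the labels put the libraries in a single batch. Neither the labels nor the methods say whether the 3 cultures of a group came from separate animals, so p-values measure only the spread between these samples, which may be technical. As explant cultures they were grown outside the vessel wall.

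Totals lay between 16250126 and 23892943 counts per library. A count of 3 was taken as the floor of a library, which corresponds to 0.117 to 0.207 CPM, and such floors cover counting error only. Of the cell types looked at, fibroblasts had the highest marker sum. The summed level of 6 fibroblast markers was 10967 to 23727 normalized CPM, against 136.7 to 342.8 for 5 smooth muscle, 4.7 to 27.9 for 5 endothelial and 6.69 to 51.1 for 5 macrophage markers. Markers of cell types rich in mitochondria were low. The 5 brown adipocyte markers summed to 9.13 to 51.6 CPM, with Ucp1 and Cidea at or under the floor in every library, and the 5 cardiomyocyte markers to 0.623 to 7.99 CPM, with no count on Myh6. Single genes carried some of these sums, Tek that of the endothelial markers and Tnnt2 that of the cardiomyocyte markers, while Pecam1, Cdh5 and Vwf had group means of at most 0.556 CPM. Replicate 3 of descending control stood apart from the other 11 libraries. It had a count on 13031 genes, against 19337 to 20931, and 11% of its counts were on the 37 mitochondrial rows, against 0.703 to 1.03%. Results that use descending control are therefore given with and without this library, and n is then 3 or 2.

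Most members were well expressed. Of the 82 nuclear members 78 were abundant enough to be tested, and 12 of the 13 mitochondrial ones. Over the 11 libraries without descending control replicate 3, the highest nuclear levels per kilobase of exon were those of Cox6a1, a ubiquitous complex IV subunit, with 331.1 CPM per kilobase, Cox8a, another, with 228.9, and Atp5b, the catalytic beta subunit of ATP synthase, with 213.3. By the same measure mt-Co1, the catalytic core of complex IV, reached 1958. At the other end by the same measure, 0.319 was found for the pseudogene Cox6c2, 0.445 for mt-Atp8 and 0.777 for Ndufb2, an accessory subunit of complex I, and forms of complex IV known from muscle, brown fat or testis were also low. Cox8c had no count in any library, which allows up to 3 counts, and Cox7b2 had 1 count in all. Cox8b had at most 3 counts in a library. Cox6a2 and Cox7a1 had 4 to 21 and 12 to 34 counts per library, and none in descending control replicate 3. The exception among these restricted forms was Cox6b2, known from testis, with 159 to 1135 counts in the 11 libraries.

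Promoter sequences, 250 bases before to 50 after the start, were available from RefSeq (GRCm38.p6) for 66 of the 82 nuclear members. Among the missing 16 were Atp5a1, Cox6a2, Cox6c, Ndufs1, Uqcrb, Uqcrc2 and Uqcrq. The promoters were searched on both strands for letters bound by factors known to act on respiratory genes. The letters of NRF1, GCGCA followed by any base and then GCGC, occurred in 16 of 66 (24.2%) and in 4.78% of 27025 promoters. CCGGAAG, or CTTCCGG, the letters of ETS factors such as GABP, occurred in 15 (22.7%) and in 9.12% of all. AANATGGCG, or CGCCATNTT, those of YY1, occurred in 8 (12.1%) and in 2.51%. GTCTAGAC, a palindrome bound by SMAD proteins, the effectors of TGFβ, occurred in 0 of 66 and in 0.211% of all. The median share of G and C bases was 57.2% in the 66 and 52.7% in all promoters, and its part in these counts was not tested. Members with and without the NRF1 letters were called higher with TGFβ about as often under TMM normalization. These were 7 of 16 and 22 of 48 in descending fibroblasts without replicate 3, where 26.6% of all genes were called higher. In ascending fibroblasts they were 3 of 16 and 10 of 48, with 28.2% of all genes. The counts are a description and were not tested. The following 4 promoters belong to members that the results turn on, Cox6b2, Atp5b, Ndufs8 and Ndufs6, with the matched letters in capitals. The first, of Cox6b2 (chr7:4753045-4753344, minus strand), holds none of these letters, and the YY1 letters of Atp5b (chr10:128083057-128083356, plus strand) lie just after its start. Those of Ndufs8 (chr19:3912725-3913024, minus strand) match ETS just after the start, and Ndufs6 (chr13:73328433-73328732, minus strand) has NRF1 letters 16 to 7 bases before the start and YY1 letters after it.
Cox6b2: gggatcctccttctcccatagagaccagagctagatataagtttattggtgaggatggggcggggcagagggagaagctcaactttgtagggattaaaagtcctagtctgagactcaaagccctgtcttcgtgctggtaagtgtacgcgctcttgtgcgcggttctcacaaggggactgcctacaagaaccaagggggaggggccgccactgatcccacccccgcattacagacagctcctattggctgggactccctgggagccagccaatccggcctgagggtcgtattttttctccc
Atp5b: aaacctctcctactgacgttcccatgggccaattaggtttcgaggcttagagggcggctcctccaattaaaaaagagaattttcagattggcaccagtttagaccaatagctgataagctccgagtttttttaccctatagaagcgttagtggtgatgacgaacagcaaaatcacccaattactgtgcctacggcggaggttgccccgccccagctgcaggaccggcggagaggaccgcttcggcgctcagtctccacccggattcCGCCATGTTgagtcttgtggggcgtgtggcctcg
Ndufs8: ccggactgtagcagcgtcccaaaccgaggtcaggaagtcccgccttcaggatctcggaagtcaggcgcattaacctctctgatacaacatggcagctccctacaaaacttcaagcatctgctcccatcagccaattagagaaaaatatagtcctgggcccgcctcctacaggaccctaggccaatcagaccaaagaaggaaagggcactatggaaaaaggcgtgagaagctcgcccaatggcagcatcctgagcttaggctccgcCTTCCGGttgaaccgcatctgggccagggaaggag
Ndufs6: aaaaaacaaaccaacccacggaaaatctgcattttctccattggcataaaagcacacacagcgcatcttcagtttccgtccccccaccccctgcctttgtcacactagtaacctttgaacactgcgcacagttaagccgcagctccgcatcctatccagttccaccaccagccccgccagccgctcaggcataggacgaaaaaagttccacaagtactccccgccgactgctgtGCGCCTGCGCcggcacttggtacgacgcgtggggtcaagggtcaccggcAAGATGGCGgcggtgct

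Nuclear members took 0.629 to 0.678% of all counts in the 11 libraries, and 0.439% in descending control replicate 3. The share was 0.678, 0.638 and 0.439% in descending control (0.585 ± 0.128, SD, n = 3, or 0.658 ± 0.0287, n = 2, without replicate 3), 0.677, 0.63 and 0.634% in descending TGFβ (0.647 ± 0.026, n = 3). In ascending fibroblasts it was 0.67, 0.663 and 0.671% in control (0.668 ± 0.00404, n = 3) and 0.629, 0.641 and 0.645% with TGFβ (0.638 ± 0.00825, n = 3). The 3 ascending TGFβ libraries lay below the 3 ascending controls, while the descending groups overlapped. Mitochondrial members took 0.992, 0.896 and 10.8% in descending control (4.24 ± 5.71, or 0.944 ± 0.0676, n = 2, without replicate 3), 0.813, 0.729 and 0.766% in descending TGFβ (0.769 ± 0.0422). In ascending fibroblasts they took 0.765, 0.77 and 0.901% in control (0.812 ± 0.0771) and 0.674, 0.709 and 0.811% with TGFβ (0.731 ± 0.0711). Descending control was the highest group, its 2 remaining libraries overlapping only ascending control. In these bulk libraries fewer cells of a type and less RNA per cell cannot be told apart.

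**Figure D1:**
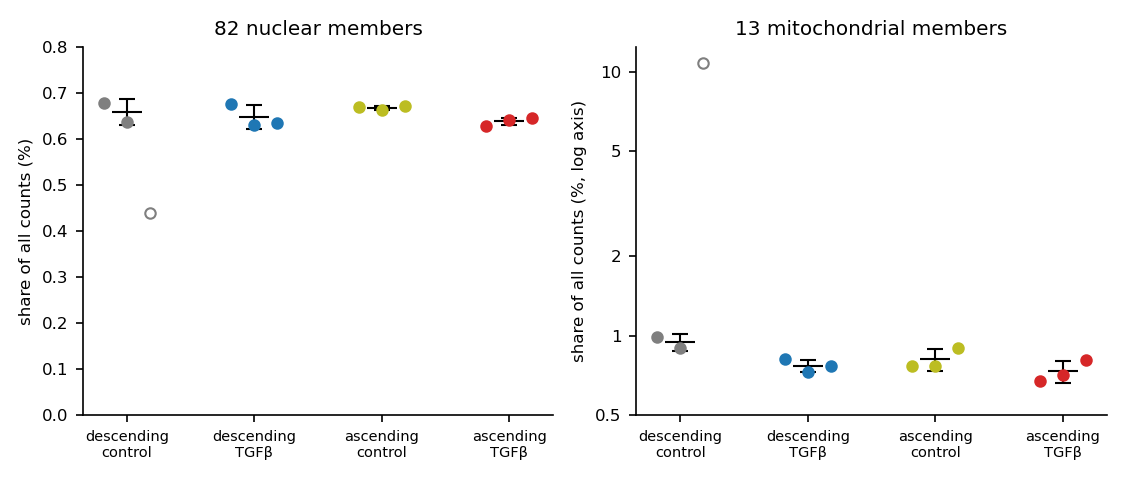
Share of all counts (%) on nuclear members (left) and mitochondrial members (right, log axis) in each library, by group, with the mean and SD of each group as lines and descending control replicate 3 as an open symbol, left out of the mean. The open symbol is lowest on the left, at 0.439%, and highest on the right, at 10.8%.

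The share is relative to a total that TGFβ changes in make-up, and normalization decides how small differences read. TMM factors were 1.066 to 1.076 in the 5 control libraries other than descending control replicate 3 and 0.9365 to 0.9839 in the 6 TGFβ libraries. On the TMM scale the nuclear sum was 6131 ± 253.2 normalized CPM in descending control without replicate 3 (n = 2), 6843 ± 242.1 in descending TGFβ and, in ascending fibroblasts, 6270 ± 34.0 in control and 6505 ± 83.8 with TGFβ (n = 3 each). The TGFβ groups were thus the higher ones on this scale, and by share the lower ones. With library totals in place of TMM, the median log2 fold change of all tested genes moved from -0.00 to -0.12 for TGFβ in ascending and from -0.01 to -0.20 in descending fibroblasts without replicate 3. Counts of calls over the members, by complex and by companion list are therefore given on both scales for TGFβ, of which the second was chosen after seeing the data.

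Descending control replicate 3 did not have uniformly low nuclear members. Relative to the mean of replicates 1 and 2, in normalized CPM, the nuclear members had a median ratio of 0.625, from 0.0606 for Atp5e, the epsilon subunit of ATP synthase, to 8.11 for Uqcrb, a complex III subunit that binds ubiquinone. Of 76 members above the floor 28 (36.8%) had a ratio below 0.5. Of 12140 genes outside the mitochondrial genome, these members included, 18.8% did, and their median ratio was 0.981. Only Uqcrb and Ndufa6, at 3.79, exceeded 2 (2.63%), against 18.4% of the 12140 genes. Between replicates 1 and 2 the median ratio was 1.07.

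The mitochondrial members of that library were higher in all 12 measured cases, by 1.89 for mt-Nd3 to 29.5 for mt-Nd2, with a median of 13.4. Their order was levelled as well. Among the 6 most abundant of them, the highest count was 5.06 to 6.58 times the lowest in the other libraries, mt-Co1 being the highest, and 1.26 times in replicate 3. Mitochondrial ribosomal RNA took 0.18% of its counts, against 0.0259 to 0.0402%. Whether the RNA, the cells or the preparation of this library differed was not tested.

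**Figure D2:**
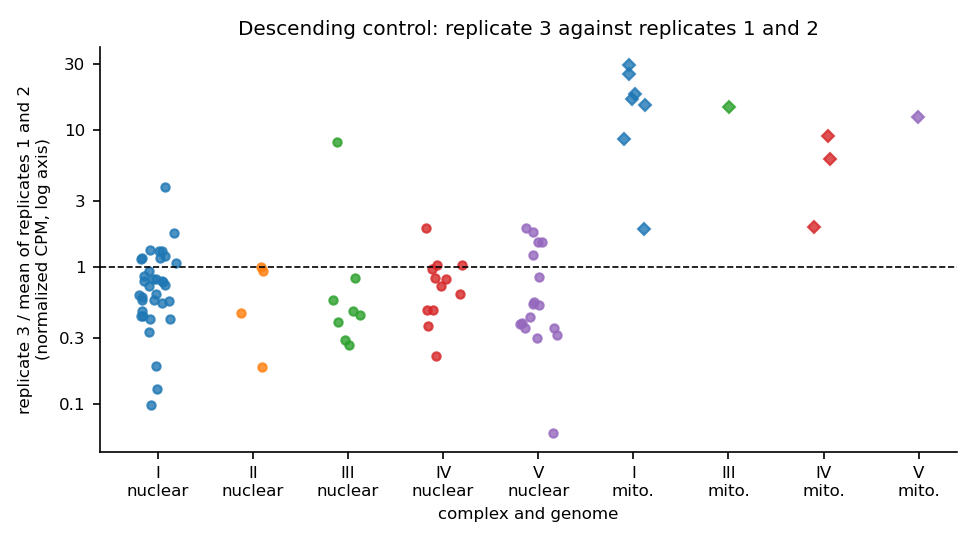
Ratio of normalized CPM in descending control replicate 3 to the mean of replicates 1 and 2 (log axis) for each member, by complex and genome. Nuclear members spread from 0.0606 to 8.11 around a median of 0.625, and the mitochondrial members lie between 1.89 and 29.5.

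In ascending fibroblasts TGFβ gave calls among the nuclear members in both directions. Of the 78 tested, 18 rose (23.1%) and 14 fell (17.9%), by edgeR's quasi-likelihood test at an adjusted p under 0.05 over 13917 genes, of which 28.2% rose and 27.6% fell. The median log2 fold change of the 78 was 0.02, with -0.00 over all genes. By complex, counts of higher and lower members differed. Complex V had 10 higher and 2 lower of 17, complex III 4 and 1 of 8, complex IV 2 and 3 of 14, complex I 2 and 7 of 35, and complex II 0 and 1 of 4. With library totals complex V had 2 higher and 3 lower, complex III 3 and 2, complex IV 1 and 7, complex I 1 and 18, and complex II 0 and 3, so the balance of complex V turned with the scale. In all, library totals gave 7 nuclear members higher and 33 lower (all genes 19.8 and 37.2%), with all 14 lower members still lower, and 7 of the 18 higher ones still called. Those 7 were Atp5b, Atp5g1, Cox5a, Ndufs8, Uqcrc2, Uqcrfs1 and Uqcrq. Of the rises 8, these 7 and that of Ndufs1, and 9 of the 14 falls were called whichever library was left out. With the 12 libraries in one fit, which then holds descending control replicate 3, 1 nuclear member was called in place of 32 (7 at an unadjusted p under 0.05), with 16% of 14637 genes called. Summed markers of other cells differed with TGFβ in ascending fibroblasts, without overlap of the groups. In control and with TGFβ, the endothelial markers summed to 24.4 to 27.9 and 4.7 to 5.73 CPM, the macrophage markers to 14.2 to 51.1 and 8.72 to 10.5, the cardiomyocyte markers to 6 to 7.99 and 3.36 to 3.9, and the smooth muscle markers to 136.7 to 149.6 and 180.9 to 193.4. The endothelial sum was mostly Tek, at a mean of 24.3 and 4.13, and of the smooth muscle markers Myh11 went the other way, at 24.1 and 15.6, and Cnn1 went from 11.2 to 43.3. Their part in the changes of the members was not tested.

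Within complex III the 3 nuclear core subunits rose in ascending fibroblasts. Uqcrc2, a core protein that faces the matrix, had 63.0, 62.3 and 54.5 normalized CPM in control and 82.8, 78.9 and 84.5 with TGFβ, a log2 fold change of 0.45 (SE 0.06, edgeR adjusted p = 3.01e-06). The groups did not overlap. Of its exon sequence 17.6% is shared with the antisense gene Pdzd9, whose reads cannot be told apart where strand was not used. Uqcrfs1, the Rieske iron-sulfur protein, rose by 0.28 (SE 0.06), and Uqcrc1, the other core protein, by 0.10 (SE 0.04), a value that is -0.01 with library totals. Uqcr11, a small accessory subunit, fell by 0.23 (SE 0.06, edgeR adjusted p = 0.00373).

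In complex V the F1 part, which carries the catalytic sites, had 4 of 5 members higher. Atp5b rose from 820.5, 795.0 and 828.2 to 974.4, 962.7 and 989.6 normalized CPM, a log2 fold change of 0.25 (SE 0.03, edgeR adjusted p = 4.25e-07), without overlap. Atp5a1, the alpha subunit, and Atp5c1, the gamma subunit, were called at 0.07 (SE 0.03) and 0.11 (SE 0.04) and read -0.04 and -0.01 with library totals, and Atp5d at 0.08 (SE 0.03) reads -0.03. Atp5e fell by 0.21 (SE 0.04) and Atp5k, the e subunit of the membrane part, by 0.27 (SE 0.08). The c-ring of the rotor is made from 3 genes that encode the same mature protein. Of these Atp5g1 rose by 0.36 (SE 0.04), Atp5g3 was called at 0.11 (SE 0.04), which is -0.00 with library totals, and Atp5g2 was at 0.02 (SE 0.05).

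Among the 28 accessory subunits of complex I none rose and 6 fell, a share below the 27.6% of all genes that fell, while with library totals the 18 lower of all 35 in complex I exceed the 37.2% of all genes. Ndufv3 fell by 0.37 (SE 0.06), Ndufa1 by 0.35 (SE 0.08), Ndufa13, also known as the cell death regulator GRIM-19, by 0.34 (SE 0.05, edgeR adjusted p = 2.11e-05), Ndufa3 by 0.25 (SE 0.06), Ndufa2 by 0.23 (SE 0.06) and Ndufa7 by 0.12 (SE 0.04). Ndufa13 had 72.2, 67.1 and 70.5 normalized CPM in control and 52.2, 57.9 and 55.7 with TGFβ, and 28.5% of its exon sequence is shared, mostly with the antisense gene Tssk6. Core subunits, which carry the redox centres, differed among themselves. Ndufs8, an iron-sulfur subunit, rose by 0.34 (SE 0.05, edgeR adjusted p = 3.66e-05), from 30.1, 30.5 and 29.2 to 38.7, 37.5 and 37.6 normalized CPM, and Ndufs1, the largest subunit, by 0.23 (SE 0.05). Ndufv2, of the NADH-oxidizing arm, was at 0.12 (SE 0.05, edgeR adjusted p = 0.0612), and its neighbour Ndufv1 was not called at either site. In complex IV, Cox6c fell by 0.16 (SE 0.05). The calls of Cox6c, Ndufa7 and Atp5k were lost when a library was left out. In complex II, Sdha, the flavin-bearing subunit of succinate dehydrogenase, fell by 0.09 (SE 0.03, edgeR adjusted p = 0.0242), from 176.2, 177.2 and 173.7 to 164.8, 164.0 and 167.2 normalized CPM, a call that was lost when a library was left out, and Sdhb, Sdhc and Sdhd were not called.

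In descending fibroblasts the answer depended on 1 library. With the 3 controls, edgeR called 0 of 78 nuclear members (5 at an unadjusted p under 0.05, DESeq2 1, limma voom with sample weights 35), where 8.07% of 13825 genes were called, 3.59% higher and 4.48% lower. Without descending control replicate 3, 35 rose and 2 fell, where 52.9% of 14311 genes were called, 26.6% higher and 26.3% lower, and the nuclear median was 0.14 with -0.01 over all genes. Leaving out descending control replicate 2 as well leaves 1 control library, which is then assumed to vary like the other groups, and 21 calls. With library totals 7 were higher and 17 lower, with 15.9 and 42.4% of all genes. The nuclear median was then -0.05, which is 0.15 above the median of all genes. Of the 35, 28 stayed positive and 7 stayed called. The brown adipocyte markers summed to 38.8 to 51.6 CPM in descending control and 23.9 to 29.4 with TGFβ. Ucp1 and Cidea were at or under the floor, so Adipoq, Plin1 and Pparg made up this sum. Endothelial markers were at 23.9 to 26.8 in control and 9.5 to 11.2 with TGFβ, macrophage markers at 9.66 to 13.3 and 6.69 to 7.47, and smooth muscle markers at 194.7 to 243.9 and 318.0 to 342.8, again without overlap. Their part in the change of the members was not tested. Of the 35 rises, 18 were called whichever further library was left out.

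By complex, without replicate 3, complex III had 7 of 8 members higher and none lower, complex IV 9 higher and 2 lower of 14, complex V 8 and 0 of 17, complex I 11 and 0 of 35, and complex II none of 4. With library totals complex III had 2 higher and none lower, complex IV 3 and 3, complex V 1 and 4, complex I 1 and 7, and complex II 0 and 3, so complex III alone kept more higher than lower calls. Among the 10 ubiquitous accessory subunits of complex IV, 8 were higher on the TMM scale. Cox5a, which sits on the matrix face, rose by 0.46 (SE 0.07, edgeR adjusted p = 7.07e-07), Cox7c was called at 0.37 (SE 0.08) and Cox7b rose by 0.34 (SE 0.06). Cox5b, which binds zinc, was called at 0.30 (SE 0.07), and it and Cox7c lost the call when a library was left out. Cox6b1 at 0.15 (SE 0.05) and Cox8a at 0.17 (SE 0.07) read -0.04 and -0.02 with library totals. In complex III Uqcrq, a small subunit next to cytochrome b, moved most, at 87.0, 73.4 and, in replicate 3, 65.8 normalized CPM in control and 124.7, 125.1 and 109.5 with TGFβ. That is a log2 fold change of 0.58 (SE 0.07, edgeR adjusted p = 1.69e-08), and the groups did not overlap, replicate 3 included. With replicate 3 in the fit it was 0.66 (SE 0.15, edgeR adjusted p = 0.0511).

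Atp5g1 had the corresponding place in complex V. It had 69.7, 68.8 and, in replicate 3, 29.7 normalized CPM in descending control and 107.3, 100.1 and 99.5 with TGFβ, a log2 fold change of 0.57 (SE 0.06, edgeR adjusted p = 1.26e-09) without replicate 3 and of 0.86 (SE 0.33, edgeR adjusted p = 0.185) with it. In ascending fibroblasts it had 74.4, 72.7 and 73.6 in control and 94.7, 92.9 and 96.9 with TGFβ. All 6 TGFβ libraries were above all 6 controls. Of its exon sequence 11.1% is shared with other genes. In complex I, Ndufs8 rose by 0.37 (SE 0.08), and Ndufv2 was called at 0.28 (SE 0.06). Ndufs1 was called at 0.14 (SE 0.06), which is -0.05 with library totals. Of complex I, library totals left Ndufs8 alone called higher, and the call of Ndufv2 was lost.

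The comparisons of TGFβ with control at the 2 sites share no library, so their calls can be set side by side. On the TMM scale 14 members were called higher at both sites, which is 77.8% of the 18 higher in ascending and 40% of the 35 higher in descending fibroblasts. Over all 13612 genes tested at both sites, 2925 were called higher at both, which is 75% of those higher in ascending and 78.7% of those higher in descending fibroblasts. The 14 members were Atp5b, Atp5d, Atp5g1, Atp5j, Atp5l, Atp5mpl, Cox5a, Cox7a2, Ndufs1, Ndufs8, Uqcrc1, Uqcrc2, Uqcrfs1 and Uqcrq. Cox6b2 and Cox7a2l were lower at both, and Uqcr11 was higher in descending and lower in ascending fibroblasts, the descending call being lost when a library was left out. With library totals 4 were higher at both sites, Atp5g1, Cox5a, Ndufs8 and Uqcrq, and 13 were lower at both, among them Cox6b2, Cox7a2l, Sdha, Sdhc and Sdhd, while of all genes 1751 were higher at both (64.1% of those higher in ascending and 79.7% in descending) and 4150 lower at both (82 and 70.8%). Of the 78, 63 (80.8%) had a smaller log2 fold change in ascending than in descending fibroblasts, as did 49.4% of all genes, and with library totals 53 (67.9%) and 36.7%.

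**Figure D3:**
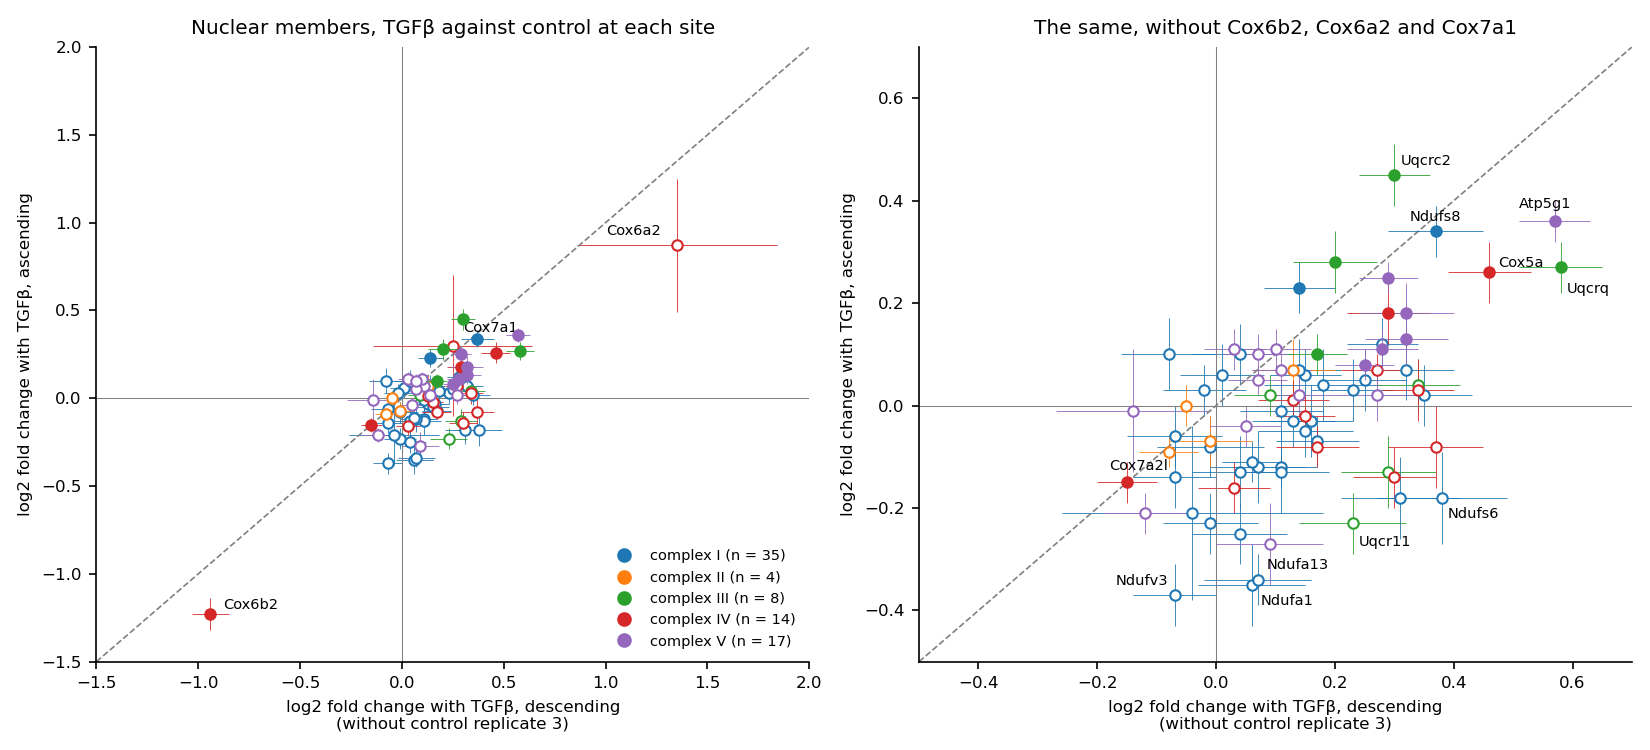
Log2 fold change with TGFβ of the 78 tested nuclear members in descending (horizontal, without control replicate 3) and ascending fibroblasts (vertical), coloured by complex, filled where called in the same direction at both sites, with SE as bars and the line of equal change dashed. The right panel leaves out Cox6b2, Cox6a2 and Cox7a1, and 63 of 78 points lie below the dashed line. The axes use TMM scaling, and library totals shift all points toward lower values.

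Cox6b2, which encodes the form of the complex IV subunit VIb known from testis, had the largest called change of any member in each comparison of 2 groups, except that Cox6a2, on few counts, moved more with TGFβ in descending fibroblasts. The gene lies on chr7:4751792-4753094, minus strand, in GENCODE vM21 (GRCm38), and shares none of its exon sequence with another gene. It had 44.2, 41.4 and, in replicate 3, 9.45 normalized CPM in descending control, 25.4, 21.3 and 20 in descending TGFβ. Ascending fibroblasts had 20.8, 22.3 and 21.5 in control and 8.31, 9.8 and 9.45 with TGFβ. Without replicate 3, each TGFβ group lay below its control, and each ascending group below its descending counterpart, without overlap. TGFβ lowered it by 1.23 on the log2 scale in ascending fibroblasts (SE 0.09, edgeR adjusted p = 2.32e-09) and by 0.94 in descending fibroblasts (SE 0.09, edgeR adjusted p = 1.08e-10). The site difference was -0.98 (SE 0.06) in control and -1.27 (SE 0.10) with TGFβ, and the interaction was not called, at -0.28 (SE 0.13, edgeR adjusted p = 0.164). Without replicate 3 these 4 calls held on both scales and with each further library left out. With it, the TGFβ effect in descending fibroblasts was -0.52 (SE 0.54) and the site difference in control -0.55 (SE 0.54), and neither was called.

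The partner Cox6b1, the ubiquitous form, was at 118.7 to 138.8 normalized CPM in descending and 116.1 to 126.7 in ascending fibroblasts without replicate 3. Cox7a2l, also known as SCAF1, had 164.0, 161.9 and 161.3 normalized CPM in ascending control and 151.7, 143.6 and 146.1 with TGFβ, and fell by 0.15 (SE 0.04, edgeR adjusted p = 0.00189). In descending fibroblasts it had 142.9, 137.2 and, in replicate 3, 143.7 in control and 133.4, 119.7 and 123.7 with TGFβ, a log2 fold change of -0.15 (SE 0.05) that was lost when a library was left out. The ascending libraries were higher than the descending ones of the same treatment. Cox7a2, its ubiquitous relative, was called higher with TGFβ at both sites, by 0.18 (SE 0.06) and 0.29 (SE 0.07), of which the ascending call was lost with library totals, at 0.07, and when a library was left out. Cox6a2, the form of heart and skeletal muscle, was called at 1.35 in descending fibroblasts without replicate 3 (SE 0.49, edgeR adjusted p = 0.0214), on 4 to 21 counts per library, and the call was lost when a library was left out.

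**Figure D4:**
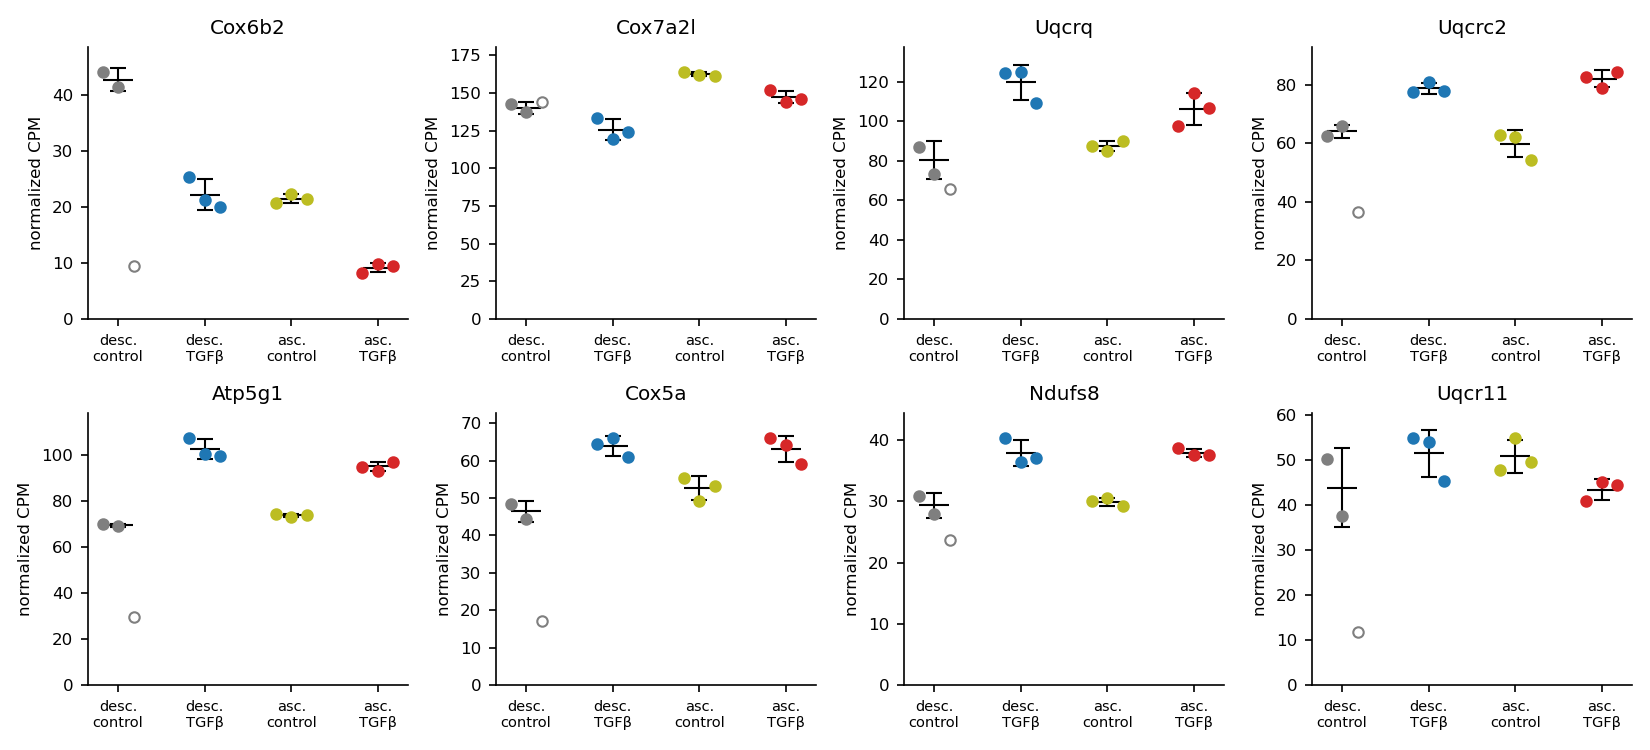
Normalized CPM of 8 nuclear members in each library, by group, with mean and SD as lines and descending control replicate 3 as an open symbol left out of the mean. Cox6b2 steps from 41.4 to 44.2 in descending control without replicate 3 down to 8.31 to 9.8 in ascending TGFβ, while Uqcrq, Atp5g1, Cox5a and Ndufs8 are higher with TGFβ at both sites.

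The mitochondrial members were tested for TGFβ in the same fits. In ascending fibroblasts edgeR called 0 of 12 (0 at an unadjusted p under 0.05, DESeq2 0), where 55.8% of all genes were called, and leaving out a library gave 0 to 3 calls, the 3 without ascending TGFβ replicate 3. With library totals 4 were lower, with 37.2% of all genes. In descending fibroblasts the fit with all libraries called 0 of 12 (4 at an unadjusted p under 0.05, DESeq2 0). Limma voom with sample weights and the 12 libraries in one fit did call some, as counted in the last section. The median log2 fold change in the first of these fits was -2.62 and rested on replicate 3. Without it 5 of 12 were lower, with 26.3% of all genes, and 11 of 12 with library totals, with 42.4% of all genes. Leaving out descending control replicate 1 too left 2.

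Those 5 were members whose reads are hard to place. They were mt-Co1, mt-Co2 and mt-Co3, the core of complex IV, mt-Atp6, which forms the proton path of complex V, and mt-Nd3, a membrane subunit of complex I. Each shares over 50% of its sequence with nuclear copies of mitochondrial DNA, mt-Co2 100%, mt-Co3 99.9% and mt-Atp6 99.5%. Their counts were low for mitochondrial transcripts, 167 to 368 for mt-Co2, 144 to 301 for mt-Co3, 124 to 270 for mt-Atp6 and 39 to 90 for mt-Nd3 in the 11 libraries, and the copy of mt-Co2, Gm28661, had 241 to 498. How the authors counted reads that fit several places is not given in the sources used here, so these levels cannot be read as those of the transcripts. The exception was mt-Co1, at 50100 to 92222 counts, of which 51.1% of the sequence is shared.

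Without replicate 3, mt-Co2 had 14.3 and 11.9 normalized CPM in descending control, 8.53, 9.27 and 8.7 in descending TGFβ. Ascending fibroblasts had 8.78, 10.3 and 9.89 in control and 10.8, 10.3 and 9.75 with TGFβ. Only descending control stood apart, and its replicate 3 had 118.6. The log2 fold change with TGFβ was -0.57 (SE 0.12, edgeR adjusted p = 0.000216) in descending and 0.08 (SE 0.11) in ascending fibroblasts. For mt-Co1 the values were 3590 and 3263 in descending control (21114 in replicate 3), 3071, 2934 and 3072 in descending TGFβ. Ascending fibroblasts had 2822, 2820 and 3308 in control and 2617, 2684 and 3095 with TGFβ. Here the ascending groups overlapped, and the fold change in descending fibroblasts was -0.18 (SE 0.05), a call that was lost when a library was left out.

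The 5 mitochondrial members that share under 10% of their sequence can be read more directly. They are mt-Cytb, the cytochrome b of complex III, and mt-Nd1, mt-Nd2, mt-Nd5 and mt-Nd6, membrane subunits of complex I, of which mt-Nd6 is read from the other strand and overlaps mt-Nd5. None was called for TGFβ at either site on the TMM scale, but with library totals all 5 were called lower in descending fibroblasts without replicate 3, from -0.13 for mt-Nd1 to -0.36 for mt-Nd6, and mt-Nd5 and mt-Nd6 in ascending fibroblasts, at -0.16 and -0.18. Without replicate 3 their log2 fold changes in descending fibroblasts on the TMM scale were -0.06 (SE 0.05) for mt-Cytb, 0.05 (SE 0.05) for mt-Nd1, -0.04 (SE 0.06) for mt-Nd2, -0.13 (SE 0.06) for mt-Nd5 and -0.17 (SE 0.08) for mt-Nd6. Levels of mt-Cytb were 1513 and 1369 normalized CPM in descending control (21017 in replicate 3), 1419, 1366 and 1365 in descending TGFβ. Ascending fibroblasts had 1163, 1199 and 1436 in control and 1144, 1234 and 1412 with TGFβ. The third replicate was the highest of each ascending group for mt-Cytb and mt-Co1. The other members were mt-Nd4, with 62.2% of its sequence shared, mt-Nd4l, with 18 to 57 counts, and mt-Atp8, which was not tested, with 0 to 4 counts in 11 libraries and 24 in replicate 3.

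**Figure D5:**
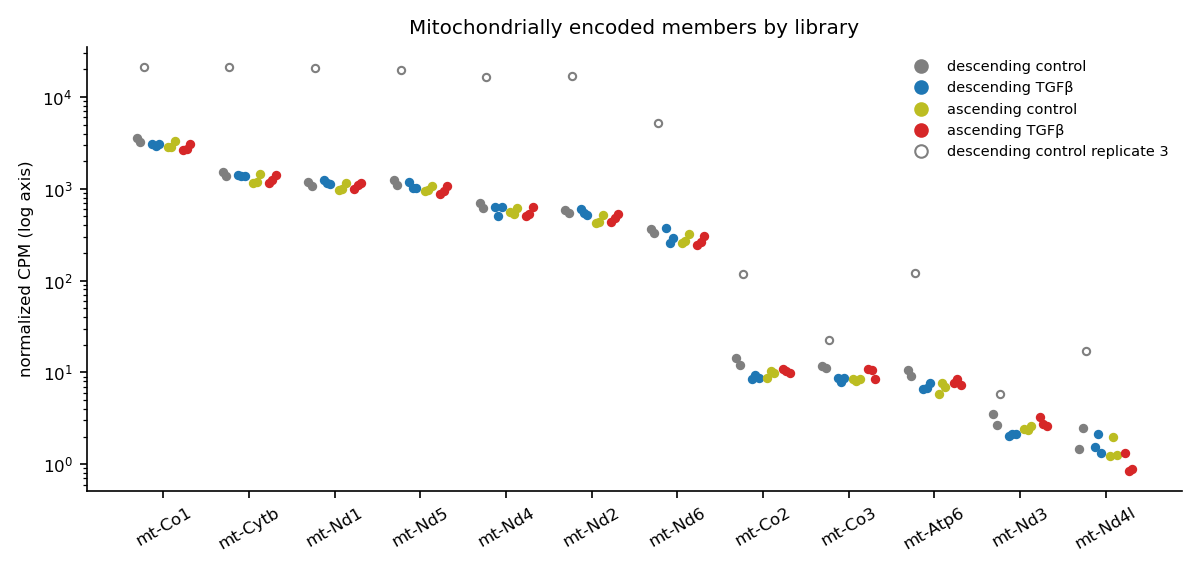
Normalized CPM (log axis) of the mitochondrially encoded members in each library, by group, with descending control replicate 3 as an open symbol. The open symbols lie above the other libraries, by 1.89 to 29.5 times the mean of replicates 1 and 2 for the 12 tested members, and the other libraries of a member lie close together.

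Between the sites in control, few nuclear members were called. With all libraries edgeR called 0 of 77 (0 at an unadjusted p under 0.05, limma voom with sample weights 7), with 2.65% of 14090 genes called, 1.19% higher in ascending and 1.47% lower. Without descending control replicate 3, 7 were higher in ascending fibroblasts and 1 lower, where 31.6% of 14644 genes were called, 16.4% higher and 15.2% lower. The count was 2 to 17 when another library was left out, 2 without descending control replicate 2 and 17 without replicate 1. Cox7a2l at 0.23 (SE 0.04) and Cox6b2 were called in every such fit. The other 6, Ndufs6 at 0.40 (SE 0.10), Ndufb3 at 0.32 (SE 0.10), Uqcrb at 0.23 (SE 0.08), Atp5l at 0.21 (SE 0.07), Cox5a at 0.19 (SE 0.07) and Atp5d at 0.17 (SE 0.05), were not. Mitochondrial members gave 0 of 12 with all libraries (4 at an unadjusted p under 0.05, limma voom with sample weights 4) and 8 lower in ascending fibroblasts without replicate 3, from -0.19 (SE 0.06) for mt-Co1 to -0.51 (SE 0.15) for mt-Atp6. DESeq2 without replicate 3 called fewer nuclear and fewer mitochondrial members, as counted in the last section. None of the 8 held in every fit with a library left out, and there were 0 without descending control replicate 1. The brown adipocyte markers summed to 38.8 to 51.6 CPM in descending and 9.7 to 12.7 in ascending control. Adipoq, Plin1 and Pparg made up that sum, at means of 11.8, 11.1 and 22.0 in descending and 0.914, 0.738 and 9.19 in ascending control. Ucp1 and Cidea were at or under the floor. The smooth muscle markers summed to 194.7 to 243.9 and 136.7 to 149.6, the macrophage markers to 9.66 to 13.3 and 14.2 to 51.1, and the cardiomyocyte markers to 0.623 to 1.13 and 6 to 7.99. The part of these markers in the site difference was not tested.

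With TGFβ, a comparison that does not use descending control, the site difference was mostly of 1 sign among the members called. Of 78 nuclear members 26 were lower in ascending fibroblasts and 1, Cox7a2l, was higher, with 36.3% of 13678 genes called, 18.2% lower and 18.1% higher. The nuclear median was -0.10, with 0.00 over all genes. Library totals gave 15 lower and 3 higher, with 14.3 and 24.4% of all genes and a nuclear median of -0.05. On the TMM scale the lower members were 10 of 28 accessory and 2 of 7 core subunits in complex I, and 4 of 5 accessory and 0 of 3 core subunits in complex III. In complex IV 8 of 14 were lower, namely 7 of 10 ubiquitous accessory subunits and Cox6b2. Complex II had 0 of 4 and complex V 2 of 17. With library totals 8 of 35 were lower in complex I, 1 of 8 in complex III, 4 of 14 in complex IV, none in complex II and 2 of 17 in complex V. Whether the kinds of subunit differ was not tested. Cox7c had 106.8, 106.3 and 83.8 normalized CPM in descending TGFβ and 68.3, 79.8 and 74.2 in ascending TGFβ, a difference of -0.41 (SE 0.07, edgeR adjusted p = 9.87e-06). The groups did not overlap, and 22.1% of its sequence is shared with other genes. Atp5k differed by -0.37 (SE 0.08) and Uqcr11 by -0.24 (SE 0.06). Of the 26, 13 were called whichever library was left out. With the 12 libraries in one fit, edgeR called 0 nuclear members in place of 27 (6 at an unadjusted p under 0.05, limma voom with sample weights 22), with 7.56% of all genes called.

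Of the 12 mitochondrial members tested, 5 were lower in ascending TGFβ and none higher, with 18.2 and 18.1% of all genes. The 5 were lower by 0.11 (mt-Co1) to 0.20 (mt-Nd2) on the log2 scale, and none of these was called in every fit with a library left out. With library totals 1 was lower and 1 higher, with 14.3 and 24.4% of all genes. With the 12 libraries in one fit edgeR called 0 of 12 (0 at an unadjusted p under 0.05, limma voom with sample weights 0). The leave-out counts ran from 0, without descending TGFβ replicate 1 or ascending TGFβ replicate 1, to 8, without ascending TGFβ replicate 3. Markers of other cells moved with the site. The brown adipocyte markers, of which Adipoq, Plin1 and Pparg made up the sum, were at 23.9 to 29.4 CPM in descending and 9.13 to 10.7 in ascending TGFβ. The cardiomyocyte markers summed to 1.14 to 1.84 and 3.36 to 3.9. Smooth muscle markers summed to 318.0 to 342.8 and 180.9 to 193.4, endothelial markers to 9.5 to 11.2 and 4.7 to 5.73, and macrophage markers to 6.69 to 7.47 and 8.72 to 10.5. Their part in the differences of the members was not tested.

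The difference of the TGFβ effect between the sites was tested as an interaction. With all libraries edgeR called 0 of 78 nuclear and 0 of 12 mitochondrial members (7 and 7 at an unadjusted p under 0.05, limma voom with sample weights 14 and 3), where 0.806% of 14637 genes were called, 0.321% positive and 0.485% negative. Without replicate 3, 15 nuclear members were negative, a less positive change in ascending fibroblasts, and 3 mitochondrial members were positive, where 13.5% of 15013 genes were called, 7.4% negative and 6.07% positive. Library totals left 4 of the 15, Cox5b, Ndufb3, Ndufs6 and Uqcr11, and the 3. Complex I gave 7 of the 15, complex III 4, complex IV 3 and complex V 1. The largest was that of Ndufs6, an accessory subunit at the zinc-binding site of complex I, at -0.56 (SE 0.16, edgeR adjusted p = 0.0165). It had 17.1 and 14.7 normalized CPM in descending control (18.4 in replicate 3), 24.3, 19.3 and 18.6 in descending TGFβ. Ascending fibroblasts had 19.1, 21.9 and 21.3 in control and 17.8, 21.2 and 16.1 with TGFβ. The ascending groups overlapped. None of the 15 was called in every fit with a library left out, and without descending control replicate 2 there were 0.

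Other genes of the pathway were read from lists of companion genes. Of 6 carriers and subunits that the symbol pattern leaves out, 3 rose and 2 fell with TGFβ in ascending and 4 and 2 in descending fibroblasts without replicate 3, and with library totals 2 and 3 and 2 and 2. Cyc1, cytochrome c1 of complex III, rose by 0.28 (SE 0.05) and 0.40 (SE 0.06), and by 0.16 and 0.21 with library totals. Cox4i1, the ubiquitous form of Cox4, was at -0.03 (SE 0.03) in ascending fibroblasts and was called at 0.13 (SE 0.05) in descending fibroblasts, a call lost when a library was left out, and with library totals it was called at -0.15 in ascending and read -0.05 in descending fibroblasts. Cycs, the electron carrier cytochrome c, rose by 0.79 in ascending and by 0.72 in descending fibroblasts. Ndufa4l2, a hypoxia-induced relative of Ndufa4, fell by 2.73 in ascending fibroblasts (SE 0.15, edgeR adjusted p = 1.65e-10), from 11.2 ± 0.993 to 1.69 normalized CPM. In descending fibroblasts without replicate 3 it was called at -0.64 (edgeR adjusted p = 0.0338), from a control mean of 3.02 to 1.93. Its interaction without replicate 3 was -2.09. Cox4i2, the hypoxia-induced form of Cox4, fell by 2.43 in descending fibroblasts without replicate 3 (edgeR adjusted p = 2.2e-11) and by 2.01 in ascending fibroblasts (edgeR adjusted p = 1.94e-06).

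Mitochondrial ribosomal proteins, which translate the 13 mitochondrial members, were mostly higher with TGFβ among those called on the TMM scale, where of all genes 28.2% rose and 27.6% fell in ascending and 26.6 and 26.3% in descending fibroblasts. Of 77 tested 35 rose and 2 fell in ascending and 42 and 1 in descending fibroblasts without replicate 3, and with library totals 10 and 7 and 16 and 5. Of 15 genes of the citrate cycle 9 rose and 2 fell in ascending and 8 and 2 in descending fibroblasts, but 5 and 3 and 2 and 5 with library totals, with Idh3a, of the NAD-linked isocitrate dehydrogenase, at 0.79 and 0.72. Assembly factors of the complexes gave 8 higher and 7 lower of 45 in ascending and 12 and 3 in descending fibroblasts, and with library totals 6 and 11 and 7 and 11. Of 19 genes of mitochondrial biogenesis 6 in ascending and 4 in descending fibroblasts were higher and none lower, with the coactivator Pprc1 at 0.80 and 0.53. With library totals the list had 2 higher and 2 lower and 2 and 4.

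Transcript length and log2 fold change were set side by side, and the sign of their correlation differed between comparisons. Over the 78 nuclear members Spearman's rho between the length of the transcript and the log2 fold change was 0.258 for TGFβ in ascending fibroblasts, 0.384 for the site difference with TGFβ and 0.407 for the interaction without replicate 3, against -0.00274, 0.0103 and 0.0653 across all genes. It was negative without replicate 3 for TGFβ in descending fibroblasts, at -0.108, and for the site difference in control, at -0.17, and with all libraries these were -0.101 and -0.12. Across all genes these were negative too, at -0.0428 and -0.0539 without replicate 3 and -0.093 and -0.108 with all libraries. Members lower in ascending TGFβ than in descending TGFβ had a median length of 537.5 bases and those not called 704.0 bases. Genes are not independent replicates and these members share their libraries, so the values are a description, and the part of length in the results was not tested.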

How the data were processed

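RNA-seq was measured in 12 libraries of cultured mouse adventitial fibroblasts, 3 per group. The authors deposited raw counts per gene symbol, one column per library and not normalized. Their processing notes name FastQC, STAR, featureCounts, DESeq2 and mm10. Versions, the annotation, the strand setting and the treatment of multi-mapping reads are not given in the sources used here. Libraries were matched to groups by the library name in their labels, and 0 columns were left unused.

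The members and the companion lists were chosen with earlier results of these data known, and complexes were assigned from textbook knowledge. Named members were all mitochondrial ones, fixed subunits, core ones and a few accessory ones (among them Ndufs1, Ndufv1, Ndufv2, Sdha to Sdhd, Uqcrc1, Uqcrc2, Uqcrfs1, Cox5a, Cox5b, Cox6c, Atp5a1, Atp5b, Atp5c1), isoform families with restricted forms, and, per comparison, complex and direction, the called nuclear member with the smallest adjusted p. Other members are named to spell out a count, and were then chosen after their values were seen. Values of 1 member are not reported here.

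Each comparison used the libraries of the groups compared, with edgeR's two-sided quasi-likelihood F-test (edgeR 4.0.16, R 4.3.3), TMM normalization, filterByExpr (minimum count 10, minimum total 15) and Benjamini-Hochberg adjustment over all genes tested. An adjusted p under 0.05 was a call. Site differences are ascending minus descending. Normalized CPM are counts relative to the TMM-scaled library total, in CPM. Comparisons with descending control were repeated without its replicate 3. The alternatives were DESeq2 1.42.0, its size factors in edgeR, no filter, mitochondrial counts left out of library sizes, limma 3.58.1 voom with sample weights, the 12 libraries in one fit, the replicate number as a block and each library left out. Library totals without TMM, and the alternatives applied without replicate 3, were added after seeing the data. The standard error was the size of the log2 fold change divided by the square root of F. Shared sequence is the share of 50-base stretches of a gene's transcripts (GENCODE vM21, GRCm38) found in another gene on either strand. The fits were tested on simulated data. Tables and figures used Python 3.11.15, pandas 2.3.3, numpy 2.4.6, scipy 1.17.1 and matplotlib 3.10.9.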

Additional observations from a re-analysis of the deposited data

Results flagged for a closer look

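The change with TGFβ differed between ascending and descending fibroblasts for 18 members, by the interaction in edgeR's quasi-likelihood test without descending control replicate 3, where 13.5% of 15013 genes were called, 7.4% negative and 6.07% positive. With that library none of the 18 was called. On the log2 scale the nuclear differences, ascending minus descending, were -0.41 (Ndufa1), -0.32 (Ndufa6), -0.23 (Ndufa7), -0.41 (Ndufa13), -0.49 (Ndufb3), -0.56 (Ndufs6) and -0.29 (Ndufv3) in complex I. In complex III they were -0.30 (Uqcr10), -0.45 (Uqcr11), -0.42 (Uqcrb) and -0.30 (Uqcrq). Complex IV gave -0.43 (Cox5b), -0.30 (Cox7b) and -0.44 (Cox7c), and complex V -0.20 (Atp5g1). With library totals Cox5b, Ndufb3, Ndufs6 and Uqcr11 were still called. The mitochondrial differences were 0.70 (mt-Atp6), 0.66 (mt-Co2) and 0.71 (mt-Co3), all members with at least 99.5% of their sequence in nuclear copies. Of the 18, mt-Co3 alone was called in every fit with a further library left out.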

How the results depend on the processing

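Depth was similar in all groups, and limits were the 2 usable descending controls, the scaling and the libraries in the fit. Counts of calls below are for nuclear, then mitochondrial members. In ascending fibroblasts TGFβ gave 32 and 0, 1 nuclear call with the 12 libraries in one fit, and 1 (no filter), 4 (library totals) and 0 to 3 (a library left out) mitochondrial calls. In descending fibroblasts 0 and 0 became 35 and 4 with limma voom, 5 and 8 with the 12 libraries in one fit, 37 and 5 without replicate 3, and 1 nuclear call each with DESeq2, its size factors and mitochondrial counts left out. Leaving out each library gave 0 to 37 and 0 to 5. Without replicate 3, 37 and 5 became 24 and 11 with library totals, 8 mitochondrial without a filter, and 21 to 37 and 2 to 7 with a further library left out. The site difference in control, 0 and 0, became 7 and 4 with voom and 0 to 8 and 0 to 8 with a library left out. Without replicate 3 it was 8 and 8, 4 and 1 with DESeq2, and 2 to 17 and 0 to 10 with a further library left out. With TGFβ the site difference, 27 and 5, became 0 and 0 with the 12 libraries in one fit, 18 to 31 and 0 to 8 with a library left out, and 1 (DESeq2), 2 (library totals) and 0 (voom) mitochondrial calls. The interaction, 0 and 0, became 14 and 3 with voom and 0 to 15 and 0 to 3 with a library left out. Without replicate 3 it was 15 and 3, 4 nuclear with library totals, and 0 to 20 and 1 to 3 with a further library left out. Shares of counts on nuclear members ranged with a library left out from 0.539 to 0.658% in descending control, and that of ascending control was 0.674% of nuclear-encoded counts. With library totals the log2 fold change with TGFβ turned to -0.01 (Uqcrc1), -0.04 (Atp5a1), -0.01 (Atp5c1), -0.00 (Atp5g3) and -0.03 (Atp5d) in ascending and, without replicate 3, to -0.05 (Ndufs1), -0.02 (Uqcrc1), -0.04 (Cox6b1) and -0.02 (Cox8a) in descending fibroblasts. The scale itself sets these, and the cause of the other moves was not tested. Pearson's r of deviations from group means across 14637 genes was -0.026 to 0.0878 in 18 same-numbered pairs and -0.0929 to 0.0729 in others. Of 12 libraries 6 correlated best with their own number. Such correlations cannot show whether same-numbered libraries share animals, and the libraries were treated as unpaired. With the replicate block the calls were 33 and 1, 0 and 0, 0 and 0, 28 and 5, and 0 and 0 for the 5 comparisons in the order above.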
